A study of Drosophila melanogaster with 6 samples.

Results

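The genes described are the 3 prophenoloxidase genes of Drosophila melanogaster, PPO1, PPO2 and PPO3, and 5 genes used to mark its blood cells, Hml, NimC1, eater, srp and crq. They were taken by name: a gene counted as measured where the array's annotation gave a probe set that gene and no other. All 8 were measured, by 9 of the 13966 probe sets, among 10844 genes in all. PPO2 had 2 probe sets, and the one with the higher mean log2 intensity stands for the gene unless stated. Transcripts of the oviduct, the duct that carries eggs from the ovary to the uterus, were compared on 3 arrays from mated females and 3 arrays from unmated females. The females of both groups were 3 days old and were kept under a cycle of 12 h light at 23 ± 2 °C. Mated females were dissected 3 h after mating ended, and unmated females at matching times. RNA came from pooled tracts of 400 to 500 females; the labels do not say whether each array had its own pool, and they name no strain or genotype. The 3 arrays of each group are biological repeats by the design text, and p-values measure the spread between these arrays, and would leave out variation between pools if a group had 1 pool.

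Insect blood cells, or haemocytes, engulf microbes and dying cells, seal wounds and carry the enzymes of melanisation. Plasmatocytes are the phagocytes, crystal cells store the prophenoloxidases PPO1 and PPO2, and lamellocytes, which form mainly in larvae attacked by parasitoid wasps, make PPO3. A cascade of serine proteases cleaves prophenoloxidase, and the active enzyme oxidises phenols to quinones that polymerise into melanin. In an organ dissected in bulk, fewer cells of a type and less RNA per cell cannot be told apart.

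Unmated arrays 1 and 2 stood apart from the other 4 in median intensity and in midgut and ovary markers. They did not stand apart in the correlations between arrays. Across probe sets above the median level, unmated array 1 correlated at 0.93 with unmated array 2 and at 0.92 with mated array 2. The highest correlation of any pair was 0.95, between mated array 1 and unmated array 3, against 0.89 between mated arrays 1 and 2. The median intensity of all probe sets was 60.6 to 66.45 on the mated arrays, against 86.2 and 86 on unmated arrays 1 and 2 and 62.4 on unmated array 3. Markers of other organs stood apart with them. The summed intensity of 11 midgut genes was 541.5 to 1046 on the mated arrays, against 3878.4 and 4262.1 on unmated arrays 1 and 2 and 841.6 on unmated array 3. That of 16 ovary and eggshell genes was 1986.3 to 5539.2 on the mated arrays, against 13527.2, 13563.4 and 3470.6 on the unmated arrays. No value of any marker was 0. The oviduct's own tissues were present on every array: 7 of 7 epithelial genes, 7 of 8 muscle genes and Octbeta2R, an octopamine receptor of the oviduct, lay above the array's median on all 6. Tbh, the other measured gene of the list that holds Octbeta2R, stayed between 2.4 and 16.8, below the lower quartile on all 6. The neighbouring organs' part in the differences below was not tested. The differences of the 8 genes, of the lists and of some other named genes are also given without unmated arrays 1 and 2. That is a fit of 3 mated arrays against 1. The all-gene median in that fit was 0.00574 on the log2 scale. Relative to all genes, muscle and epithelium were lower on unmated arrays 1 and 2. Their median centred levels there were -0.36 and -0.36 for muscle and -0.38 and -0.42 for epithelium. On the other 4 arrays they were 0.020 to 0.38 and 0.094 to 0.23. In summed deposited intensity epithelium was also lowest on unmated arrays 1 and 2, at 8131.1 and 7436.3. Muscle was not, with 52869.5 on unmated array 1 against 51946.7 on mated array 3.

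None of the 8 genes passed the test for a difference after mating, and neither did any other gene. At an adjusted p of 0.05, limma called 0 of the 13966 probe sets, a background of 0%. At an unadjusted p of 0.05, PPO1 alone of the 8 was called, as lower in mated oviducts, where 5.25% of all genes were called lower and 0.987% higher. That call of PPO1 did not hold after median centring (unadjusted p 0.0745), quantile normalization (0.0818) or cyclic loess (0.0737), with the replicate block (0.0675), without unmated arrays 1 and 2 (0.280) or in 5 of the 6 fits with 1 array left out (0.0548 to 0.144, in limma). It held with an offset of 32 (unadjusted limma p 0.0487), trend and robust variance (0.0432) and averaged probe sets (0.0436). It also held with array weights (0.0197) and without mated array 2 (0.00499). PPO2 was called with the replicate block (unadjusted limma p 0.0251), array weights (0.0182), without mated array 1 (0.0255) and without unmated array 3 (0.0418). In none of the 8 did the mated and unmated values stand fully apart, which 10.9% of all genes did. The mated mean of log2 intensity was lower in 7 of 8, where 62.2% of all genes were lower; after median centring it was lower in 5 of 8, against 41.2% of genes, and without unmated arrays 1 and 2 in 4 of 8, against 49.5%. The median log2 difference, mated minus unmated, was -0.33 over the 8 genes and -0.16 over all genes, and the median over all genes became 0.11 after median centring.

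**Figure D1:**
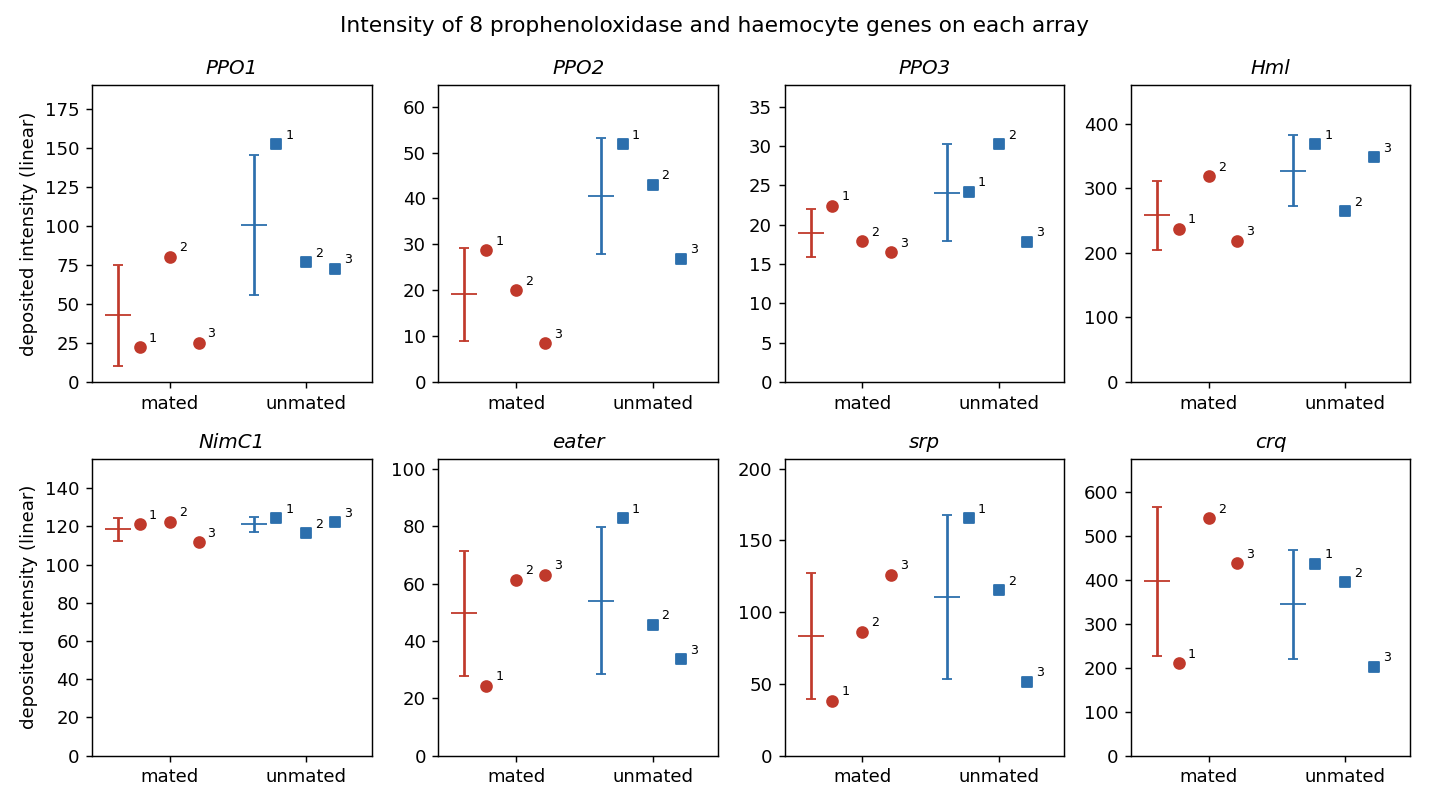
Deposited intensity (linear scale, arbitrary units) of the 8 genes on each array, with mated arrays as red circles and unmated arrays as blue squares, numbered by replicate; the bars give mean ± SD (n = 3 each). The groups overlap in every panel, and NimC1 stays between 111.6 and 124.3.

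PPO1, the crystal cell enzyme released when these cells burst, had intensities of 22.4, 80.2 and 25.1 on mated arrays 1, 2 and 3, against 152.2, 76.7 and 72.6 on unmated arrays 1, 2 and 3. Mated arrays 1 and 3 were low, while mated array 2 lay above unmated arrays 2 and 3, so the groups overlapped. The means were 42.6 ± 32.6 in mated and 100.5 ± 44.8 in unmated oviducts (SD, n = 3 each). The log2 difference of PPO1 was -1.41 ± 0.59 (SE), with a 95% interval of -2.79 to -0.033, an unadjusted p of 0.0459 and an adjusted p of 0.745 in limma. An exact permutation test over the 6 arrays, two-sided, gave p = 0.3, where 0.1 is the smallest possible. Mated array 2 set the size more than any other: without it the difference was -1.997, and without unmated arrays 1 and 2 it was -1.03.

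PPO2, the second crystal cell enzyme, which is held as crystals in the cell, had intensities of 28.7, 20 and 8.5 on mated arrays 1, 2 and 3, against 51.8, 43 and 26.9 on unmated arrays 1, 2 and 3. The groups overlapped by 1 pair of arrays, mated 1 above unmated 3. All 6 values lay below their array's median, and the 8.5 on mated array 3 lay below its lower quartile of 14.2, so the size of the difference is uncertain. The means of this probe set were 19.1 ± 10.1 in mated and 40.6 ± 12.6 in unmated oviducts (SD, n = 3 each). Its log2 difference was -1.21 ± 0.53 (SE; 95% interval -2.45 to 0.037; limma adjusted p 0.757; exact permutation p 0.2).

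The other PPO2 probe set did not show this gap. It read 21.5, 18.6 and 14.8 on mated arrays 1, 2 and 3, against 28.3, 17.7 and 12.8 on unmated arrays 1, 2 and 3, with unmated values on both sides of all mated ones. Its log2 difference was -0.038 ± 0.40 (SE), with a 95% interval of -0.98 to 0.90. The mean of both PPO2 probe sets gave -0.62. Without unmated arrays 1 and 2 the first PPO2 probe set gave -0.67, and without mated array 3, -0.71.

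PPO3, the lamellocyte enzyme, had intensities of 22.4, 17.9 and 16.5 on mated arrays 1, 2 and 3, against 24.2, 30.2 and 17.8 on unmated arrays 1, 2 and 3. The groups overlapped, and all 6 values lay below the array medians and above the lower quartiles, which ran from 14.2 to 23.9 over the arrays. Its log2 difference was -0.33 ± 0.35 (SE; 95% interval -1.14 to 0.49; limma adjusted p 0.924). The sign turned after quantile normalization (0.00472), after cyclic loess (0.043) and without unmated arrays 1 and 2 (0.077). Relative to the array medians PPO3 was among the steadiest genes. After median centring its SD over the 6 arrays was 0.16 on the log2 scale, smaller than that of all but 1.36% of genes. Its highest value was then 1.30 times its lowest. On the deposited scale the SD was 0.33, and 19.8% of genes had a smaller one. The values lay near the lower quartiles, and whether they exceed background was not tested.

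**Figure D2:**
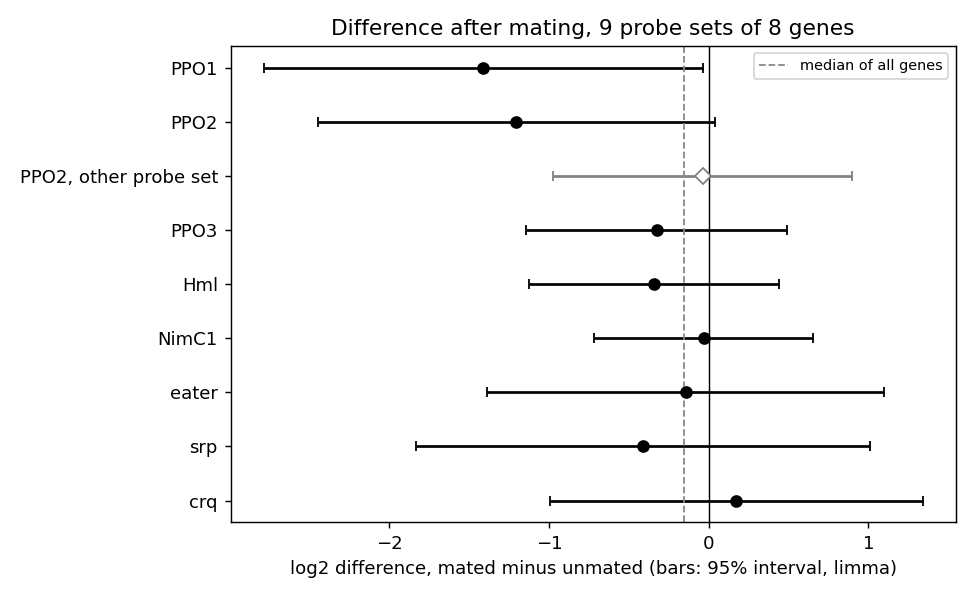
Log2 difference, mated minus unmated (x axis), for the 9 probe sets, with 95% intervals from limma; the open diamond is the second probe set of PPO2 and the dashed line the median of all genes, -0.16. Only the interval of PPO1 leaves out 0, before adjustment for 13966 tests.

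Hml encodes hemolectin, a large secreted protein of the blood clot that is the standard marker of plasmatocytes. Its intensities were 237.4, 318.4 and 218.3 on mated arrays 1, 2 and 3, against 367.8, 264.3 and 347.7 on unmated arrays 1, 2 and 3. Mated array 2 lay above unmated array 2, and all 6 values were above the array medians. The means were 258 ± 53.1 in mated and 327 ± 54.9 in unmated oviducts (SD, n = 3 each). The log2 difference of Hml was -0.34 ± 0.33 (SE; 95% interval -1.13 to 0.44; limma adjusted p 0.906; exact permutation p 0.2). The interval spans folds of 0.457 to 1.36. The Hml difference was -0.45 without unmated arrays 1 and 2, and ran from -0.30 after cyclic loess to -0.079 after median centring among the other scalings.

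NimC1 encodes the receptor after which the Nimrod family is named, which binds bacteria for uptake by plasmatocytes. Its intensities were 121, 122.5 and 111.6 on mated arrays 1, 2 and 3, against 124.3, 116.4 and 122.2 on unmated arrays 1, 2 and 3. The 6 arrays differed by at most 1.11 times, and 4 of the 10844 genes had a smaller SD over the arrays than the 0.058 of NimC1 on the log2 scale. This steadiness belongs to the deposited scale. The SD of NimC1 was 0.22 after median centring, where 4.58% of genes had a smaller one, and 0.16 after cyclic loess, where 2.62% did. The log2 difference of NimC1 was -0.032 ± 0.29 (SE; 95% interval -0.72 to 0.65; limma adjusted p 0.992), its error being drawn towards that of all genes by the model, and -0.047 without unmated arrays 1 and 2. The difference was 0.23 after median centring, 0.17 after quantile normalization and 0.13 after cyclic loess, and the means were 118 ± 5.91 in mated and 121 ± 4.09 in unmated oviducts (SD, n = 3 each).

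The other receptors and the transcription factor shared a pattern over the arrays that did not follow mating. Eater, a Nimrod-family receptor for bacteria on plasmatocytes, had intensities of 24.4, 61.4 and 63.1 on mated arrays 1, 2 and 3, against 82.9, 45.7 and 33.7 on unmated arrays 1, 2 and 3. The CD36-family gene crq, whose product croquemort takes part in the uptake of dying cells, had 211.1, 541.1 and 438.3 on the mated arrays, against 437, 394.4 and 202.6 on the unmated arrays. The gene srp, or serpent, which encodes the GATA factor that specifies haemocytes and fat body, had 38.3, 86.5 and 126 on the mated arrays, against 165.6, 115.3 and 51.6 on the unmated arrays. In all 3 genes mated array 1 and unmated array 3 held the lowest values, and the ranges of the groups overlapped. This pair of arrays was the lowest in 16.7% of all genes, the most frequent of the 15 possible pairs. The same 2 arrays also had the lowest summed intensity of 10 GATA factors and other haemocyte regulators, 314.2 on mated array 1 and 374.2 on unmated array 3, against 535.6 to 675.9 on the others. The median centred level of that list was also lowest there, at -0.44 and -0.23. Other lists shared the low sums. On these 2 arrays the sum of 5 neuronal genes was 342.1 and 352.8, against 525 to 922.5 on the others. That of 6 phagocytosis genes was 832.4 and 760.9, against 839.1 to 1058.2. The median centred level of neither list was lowest on both arrays. The part of this array pattern in the values of the 3 genes was not tested.

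**Figure D3:**
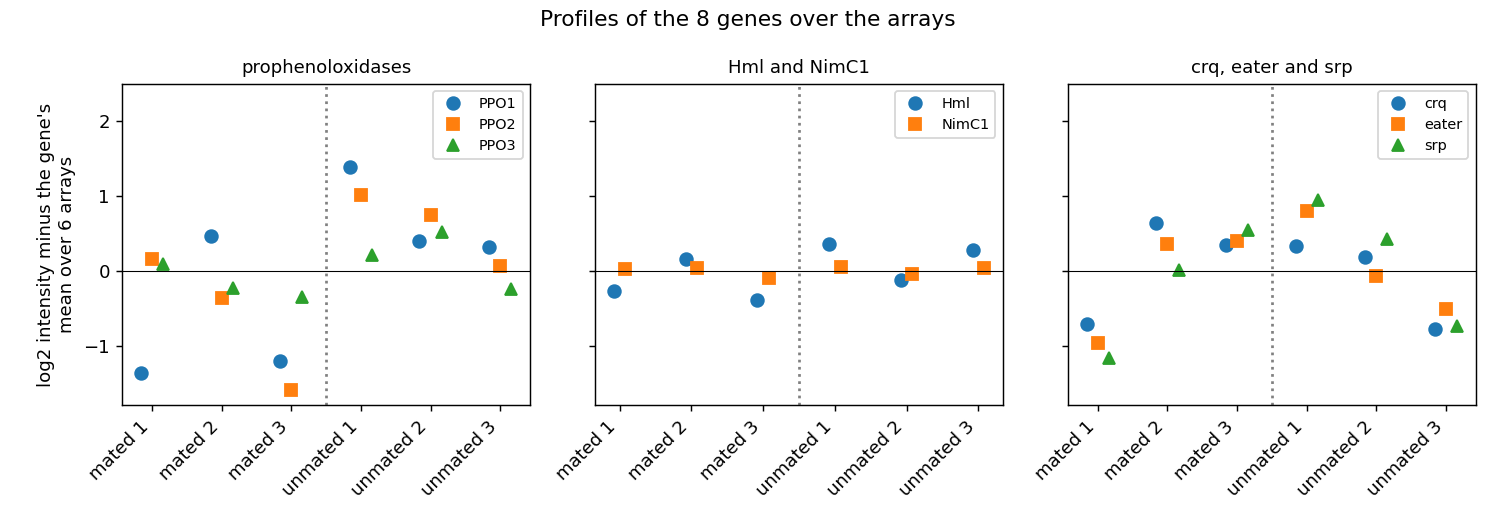
Log2 intensity minus the gene's mean over the 6 arrays (y axis), for each array (x axis) and each of the 8 genes. PPO1 is high on all arrays but mated 1 and 3, Hml and NimC1 move little, and crq, eater and srp are low on mated array 1 and unmated array 3.

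The log2 difference of crq was 0.17 ± 0.50 (SE; 95% interval -0.99 to 1.34), that of eater -0.14 ± 0.53 (-1.39 to 1.10) and that of srp -0.41 ± 0.60 (-1.84 to 1.01), with limma adjusted p of 0.974, 0.977 and 0.946. The means of crq were 397 ± 169 in mated and 345 ± 125 in unmated oviducts, those of eater 49.6 ± 21.9 in mated and 54.1 ± 25.7 in unmated oviducts, and those of srp 83.6 ± 43.9 in mated and 111 ± 57.1 in unmated oviducts (SD, n = 3 each). The spread between arrays of one group was thus larger than the difference between groups in each gene. Without unmated arrays 1 and 2 the differences were 0.86 for crq, 0.43 for eater and 0.53 for srp. Without mated array 1 eater stood at 0.31 and srp at 0.069, and without unmated array 3 crq stood at -0.17.

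Likeness between profiles was measured as the root mean square difference of log2 values over the 6 arrays, each gene centred on its own mean. Over the 28 pairs of the 8 genes it ran from 0.24, between Hml and NimC1, to 1.10, between PPO2 and srp. The measure takes in how much each gene varied as well as the order of its arrays. Steady genes thus lie close to each other, and variable ones lie close only where they move alike over the arrays. The SD of log2 values over the arrays was 0.058 for NimC1 and 0.31 for Hml, against 0.93 for PPO2 and 1.07 for PPO1. Eater lay at 0.29 from crq and at 0.29 from srp, and crq at 0.42 from srp, whereas PPO1 lay at 0.77 from PPO2 and at 0.92 from PPO3. Among the 5421 other genes above the median level, those nearest to crq were CG8389, sra, which encodes a regulator of calcineurin, and CG7492, at 0.069, 0.086 and 0.090. The nearest to Hml were Pgm1, a phosphoglucomutase, tgo, a partner of bHLH-PAS transcription factors, and BHD, the fly folliculin, at 0.069, 0.081 and 0.087. Pgm1 for example had 935.6, 1267.4 and 870 on mated arrays 1, 2 and 3, against 1384.3, 923.2 and 1377.2 on unmated arrays 1, 2 and 3.

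Of 11 other haemocyte markers measured out of 12 listed, none passed, 0 were higher and 1 was lower at an unadjusted p of 0.05, and their median log2 difference was -0.027, against -0.16 over all genes. Without unmated arrays 1 and 2 the order turned, with a median of -0.15 against 0.00574 over all genes and 9 of the 11 below that of all genes. In 3 of them all mated values lay below all unmated ones, where 8.43% of genes did. These were Pvr, the receptor for PDGF- and VEGF-related growth factors that haemocytes need for survival, Nplp2, which encodes a neuropeptide-like precursor, and ItgaPS4, an integrin subunit used as a lamellocyte marker. Pvr had intensities of 1239.5, 1178.4 and 849.7 on mated arrays 1, 2 and 3, against 2025.3, 1921.1 and 1405.4 on unmated arrays 1, 2 and 3, a log2 difference of -0.71 ± 0.34 (SE; limma adjusted p 0.768). Nplp2 had 2702, 1938.1 and 2024.7 on the mated arrays, against 5433.3, 3634.8 and 2782 on the unmated arrays, with mated array 1 close to unmated array 3. ItgaPS4 had 3.6, 6 and 3.4 on the mated arrays, against 9.8, 24.6 and 14.5 on the unmated arrays, with 5 of 6 values below the array's lower quartile. Without unmated arrays 1 and 2 the log2 differences were -0.39 for Pvr, -0.34 for Nplp2 and -1.79 for ItgaPS4. Another lamellocyte marker, atilla, was far brighter and its groups overlapped. It had 11619, 13681.7 and 9337.3 on mated arrays 1, 2 and 3, against 6768.3, 6223.2 and 12652.3 on unmated arrays 1, 2 and 3. The log2 difference of atilla was 0.49 ± 0.39 (SE, limma adjusted p 0.868), or -0.15 without unmated arrays 1 and 2. The kinase gene msn, which has an enhancer used to mark lamellocytes, had 291.4, 321.8 and 299 on the mated arrays, against 156.2, 206.7 and 303.2 on the unmated arrays; its log2 difference was 0.51 with all arrays and 0.0028 without unmated arrays 1 and 2.

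Among the relatives of NimC1, eater and crq, 16 of 21 listed Nimrod and scavenger receptor genes were measured; none passed, 1 was higher and 0 were lower at an unadjusted p of 0.05, and the median log2 difference was -0.16, as over all genes. Without unmated arrays 1 and 2 it was -0.18, against 0.00574 over all genes, and 12 of the 16 were lower. Sr-CIV, a class C scavenger receptor, had 31.7, 25.6 and 32 on mated arrays 1, 2 and 3, against 18.7, 4.7 and 5.8 on unmated arrays 1, 2 and 3. Its mated values all lay above its unmated ones, as in 2.45% of genes, with a log2 difference of 1.89 ± 0.55 (SE; limma adjusted p 0.674; 2.35 without unmated arrays 1 and 2), but 3 of the 6 values were below the array's lower quartile. NimB5 and NimC2 stand 2 gene positions from NimC1 on either side in the RefSeq gene order (Release 6). NimC2 had 231.6, 120.5 and 241 on the mated arrays, against 316.6, 185.9 and 417 on the unmated arrays, and NimB5 had 13.8, 13.1 and 4.6 against 14.2, 19.4 and 14, all below the lower quartiles. Unlike NimC1, whose values differed by 1.11 times at most, both neighbours varied between arrays of one group. The engulfment receptor gene drpr, or draper, had 669, 2186.7 and 1712.9 on mated arrays 1, 2 and 3, against 1902.2, 1751.1 and 1008.8 on unmated arrays 1, 2 and 3. Its lowest arrays were mated 1 and unmated 3, as in 16.7% of all genes. It was named after its values were seen, and NimC2 was lowest on mated array 2 and unmated array 2. The CD36-family gene santa-maria averaged 287 ± 120 in mated and 454 ± 147 in unmated oviducts (SD, n = 3 each), with overlapping groups. NimC3 lay below the lower quartile on all 6 arrays, and its log2 difference of -0.58 became -0.0041 without unmated arrays 1 and 2.

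Of 10 measured haemocyte regulators and GATA factors, out of 14 listed, none passed and 0 had an unadjusted p under 0.05. Their median log2 difference was -0.42 with all arrays and 0.12 without unmated arrays 1 and 2. The gene ush, which encodes a cofactor of serpent, had 104.2, 207.2 and 150.7 on mated arrays 1, 2 and 3, against 241, 199.5 and 162.2 on unmated arrays 1, 2 and 3. The crystal cell regulator lz, the Runx factor lozenge, had 3.5, 33.1 and 10.9 on the mated arrays, against 11.6, 90.5 and 2.9 on the unmated arrays, with 4 of 6 values below the array's lower quartile. The lz intensity was 11.6 or less on mated arrays 1 and 3, which were low in PPO1, and also on unmated arrays 1 and 3, which were not. GATAd had 77.6, 143.5 and 148.2 on the mated arrays, against 116.6, 72.3 and 27.7 on the unmated arrays, and its log2 difference was 0.94 with all arrays and 2.09 against unmated array 3 alone. The glial and haemocyte factor gcm had 9.4, 2.8 and 3.2 on the mated arrays, against 30, 31.3 and 4.1 on the unmated arrays. Only unmated arrays 1 and 2 were high: the log2 difference of gcm was -1.84 with them and 0.096 without them, and that of GATAe was -0.89 with them and -0.13 without. All 6 GATAe values and 4 of 6 gcm values lay below the array's lower quartile.

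Around the prophenoloxidases, 15 of 18 listed genes of melanin synthesis and prophenoloxidase activation were measured. None passed, 0 were higher and 1 was lower at an unadjusted p of 0.05, and the median log2 difference was 0.052, or 0.14 without unmated arrays 1 and 2. In 3 of them, Ddc, stw and yellow-f2, all mated values lay below all unmated ones, where 8.43% of genes did. Ddc, dopa decarboxylase, had 63.7, 81.4 and 77.3 on mated arrays 1, 2 and 3, against 127.2, 128.8 and 109.5 on unmated arrays 1, 2 and 3, a log2 difference of -0.72 ± 0.31 (SE; limma adjusted p 0.752). The laccase gene stw had 64.3, 64.4 and 41.3 on the mated arrays, against 90.9, 95.2 and 80.7 on the unmated arrays, and yellow-f2, a dopachrome conversion enzyme, had 134.9, 128.4 and 139.7 against 188.3, 150.2 and 193.3. Without unmated arrays 1 and 2 the log2 difference was -0.57 for Ddc, -0.54 for stw and -0.53 for yellow-f2. In ple, Pu, e, t, speck and yellow-f, which also encode enzymes, the groups overlapped. With all arrays the log2 difference was 0.60 for t, 0.53 for speck and 0.42 for yellow-f. It was -0.31 for ple, -1.45 for Pu and -0.31 for e. In the inhibitors and proteases the groups overlapped as well. Spn27A, the serpin that restrains prophenoloxidase activation in the haemolymph, had 9382.1, 6363 and 9485.9 on the mated arrays, against 4470.9, 7179.8 and 6800.9 on the unmated arrays. Spn28Dc, a serpin of melanisation, stood at 923.8 on mated array 1 and between 227.8 and 465.9 on the others, and the activating protease Sp7 ran from 132.3 to 291.2 in mated and from 176.2 to 192.5 in unmated oviducts. The pigment gene y, or yellow, averaged 71.8 ± 32.7 in mated and 39.8 ± 20.4 in unmated oviducts (SD, n = 3 each).

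Of 7 measured clotting genes, out of 9 listed, none passed and 1 was lower at an unadjusted p of 0.05, with a median log2 difference of -0.23, or -0.053 without unmated arrays 1 and 2. Tg, transglutaminase, which cross-links the clot, had 4150.6, 3297.6 and 3725 on mated arrays 1, 2 and 3, against 2123.5, 2405.9 and 2982.9 on unmated arrays 1, 2 and 3. Its mated values all lay above its unmated ones, as in 2.45% of genes. The log2 difference of Tg was 0.58 ± 0.32 (SE, limma adjusted p 0.799), or 0.31 without unmated arrays 1 and 2. The mucin gene Muc11A had 8.4, 3.9 and 1.9 on the mated arrays, against 75.6, 49.2 and 13.4 on the unmated arrays, with 4 values below the array's lower quartile, and its log2 difference was -3.22 with all arrays and -1.76 without unmated arrays 1 and 2. Muc68D stayed between 1 and 4.1, below the lower quartile on all 6 arrays. In both Muc11A and Muc68D all mated values lay below all unmated ones, as in 8.43% of genes. Gp150 averaged 2023 ± 225 in mated and 2409 ± 580 in unmated oviducts (SD, n = 3 each). Of 6 measured genes of the phagocytosis machinery, out of 12 listed, none passed or had an unadjusted p under 0.05, and the median log2 difference was 0.22, or 0.51 without unmated arrays 1 and 2. SCAR, an activator of actin branching, had 174.4, 142.5 and 196.3 on the mated arrays, against 132, 57.4 and 109.1 on the unmated arrays. Its mated values also all lay above its unmated ones, as in 2.45% of genes. The log2 difference of SCAR was 0.85, or 0.64 without unmated arrays 1 and 2. Itgbn, Ced-12 and ced-6 averaged 102 ± 36.8, 107 ± 20.9 and 227 ± 62.6 in mated oviducts, against 69.7 ± 42.4, 130 ± 35.9 and 201 ± 62.4 in unmated oviducts.

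**Figure D4:**
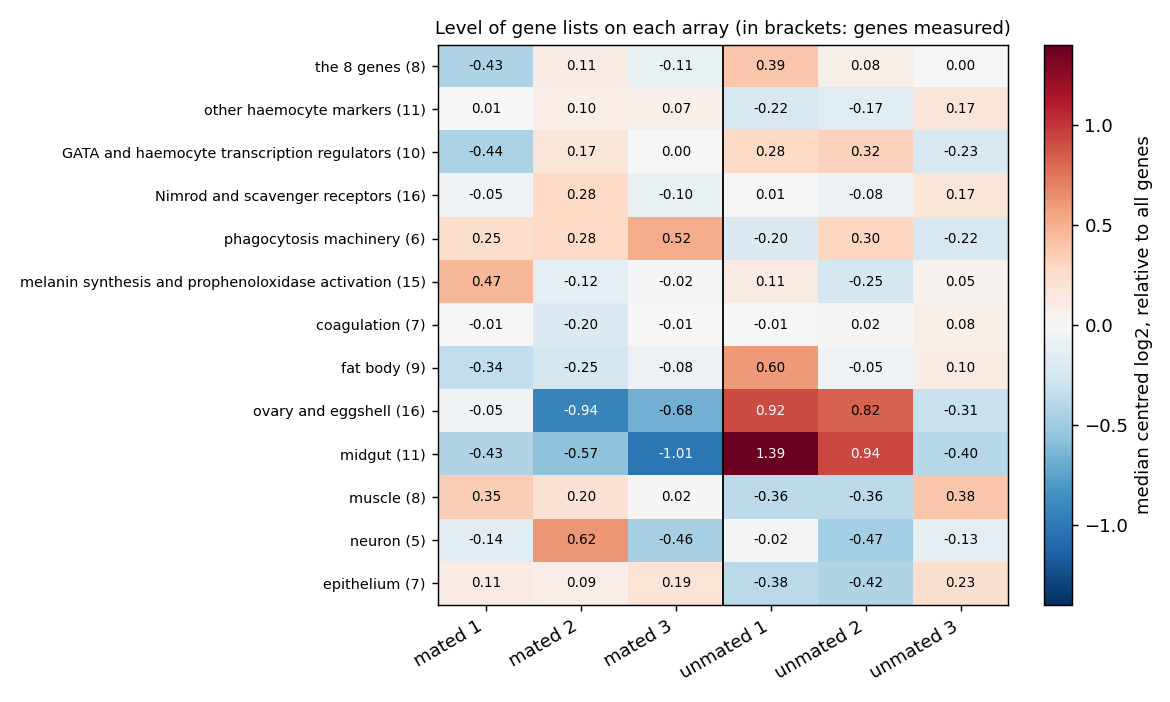
Median centred log2 level of each gene list, relative to all genes, on each array (columns; colour and number), with the number of genes measured in brackets. The midgut and ovary lists are high on unmated arrays 1 and 2, where the 8 genes stand at 0.39 and 0.080.

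Markers of other cell types gave the setting of these values. The fat body, which also uses serpent and can adhere to dissected organs, had a summed intensity over 9 measured genes of 1385.5 to 2315.5 on the mated arrays, against 1914.8 to 3532.1 on the unmated arrays. Unmated array 1 was highest both in this sum and in PPO1, PPO2, Hml, NimC1, eater and srp, in NimC1 by 124.3 against 122.5 on mated array 2. That array also had the highest median intensity of all probe sets, 86.2. The share of all genes that were highest on it was not counted, so no link to the fat body can be read from this. The lipophorin gene apolpp had 374.7, 406.1 and 580.4 on mated arrays 1, 2 and 3, against 1003.2, 817.2 and 209.3 on unmated arrays 1, 2 and 3. The lipase gene bmm averaged 366 ± 264 in mated and 656 ± 144 in unmated oviducts (SD, n = 3 each). The summed intensity of 5 neuronal genes ran from 342.1 to 922.5 on the mated arrays and from 352.8 to 632.5 on the unmated arrays, and most of it came from Csp. The muscle sum was 51946.7 to 69193.6 on the mated arrays, against 52869.5, 48137.4 and 72690.4 on unmated arrays 1, 2 and 3. The part of these cells in the values of the 8 genes was not tested.

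**Figure D5:**
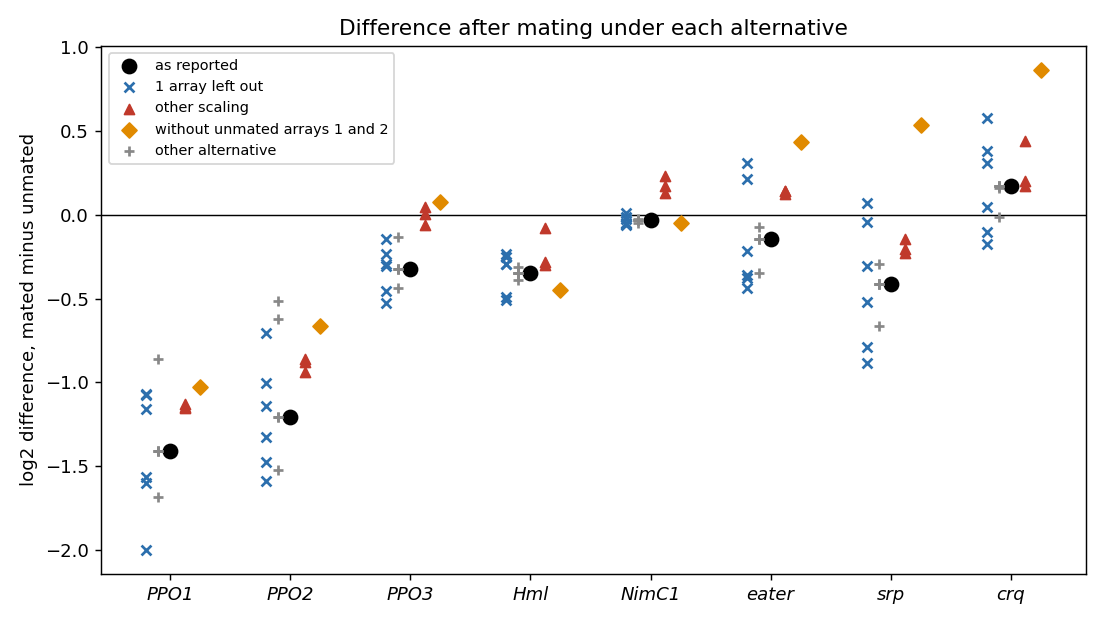
Log2 difference, mated minus unmated (y axis), of each of the 8 genes as reported (black circle), with 1 array left out (blue cross), under another scaling (red triangle), without unmated arrays 1 and 2 (orange diamond) and under the other alternatives (grey plus). PPO1, PPO2 and Hml stay below 0 throughout, while PPO3, NimC1, eater, srp and crq lie on both sides of 0.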

How the data were processed

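The authors deposited 1 linear intensity per probe set and array. Per the submitters' processing notes they came from RMA, but no log2 scale was found, and the mean over the middle 96% of values is 250 on every array, so they were treated as scaled by 1 factor per array. Detection calls were not used here. The number of arrays limits the precision.

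The 44 control probe sets of 14010 were left out. In the platform annotation 12443 probe sets had 1 gene, 327 had several and 1196 were not listed. Of those with 1 gene, 12394 matched a RefSeq gene by identifier and took its symbol (Release 6 plus ISO1 MT, for names and gene order only). Each gene was taken from its probe set with the highest mean log2. Log2 intensities, with no offset or filter, were compared as mated minus unmated with limma 3.58.1 in R 4.3.3, two-sided, Benjamini-Hochberg over 13966 probe sets, after the script had been tested on simulated data. Named besides the 8 genes were up to 4 genes per haemocyte-related list with the smallest p, up to 2 of highest mean log2 per other cell type, of which those that bear on a result are given, and the 3 likest genes of crq and Hml. Further genes (NimC2, drpr, lz, yellow-f2, Spn27A, Sp7, atilla, ple, Pu, e, t, speck, yellow-f) were chosen after their values were seen. The members and lists were chosen with earlier results of these data known.

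The alternatives tried were 3 other scalings (median centring, quantile normalization, cyclic loess), an offset of 32, a filter at the median level, trend and robust variance, array weights, a replicate block, the omission of each array or of unmated arrays 1 and 2, and averaging over all probe sets of a gene.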

Additional observations from a re-analysis of the deposited data

How the results depend on the processing

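The count of probe sets past the adjusted threshold was 0 under all 16 alternatives, with the lowest adjusted p at 0.184. The median log2 difference of the 8 genes relative to all genes was -0.18 as reported, ran from -0.24 to -0.025 with 1 array left out, and was 0.00904 without unmated arrays 1 and 2. The labels do not say whether the replicate numbers pair the arrays. Same-numbered deviations from the group means correlated at -0.18, 0.025 and -0.086 across probe sets. The highest of the 9 correlations between a mated and an unmated array was 0.25, for mated 1 with unmated 3. Mated 2 with unmated 1 stood at 0.17 and mated 3 with unmated 2 at 0.10. Deviations sum to 0 within each group, so these correlations constrain each other and cannot decide whether samples were paired. A replicate block cannot move the differences in this balanced design; it changed the limma p, to an unadjusted 0.0675 and adjusted 0.766 for PPO1, and an unadjusted 0.0251 and adjusted 0.729 for PPO2, and 0 probe sets passed. With 1 array left out, PPO1 ran from -1.997 to -1.07, PPO2 from -1.59 to -0.71, PPO3 from -0.53 to -0.14, Hml from -0.51 to -0.23, NimC1 from -0.059 to 0.00984, eater from -0.43 to 0.31, srp from -0.89 to 0.069 and crq from -0.17 to 0.58. An offset of 32 gave -0.86 for PPO1 and -0.51 for PPO2. The sign turned for eater after quantile normalization (0.14), median centring (0.12), cyclic loess (0.14) and without unmated arrays 1 and 2 (0.43), and for NimC1 after quantile normalization (0.17), median centring (0.23) and cyclic loess (0.13). It turned for PPO3 after quantile normalization (0.00472), cyclic loess (0.043) and without unmated arrays 1 and 2 (0.077), for srp without them (0.53) and for crq with array weights (-0.015). The cause was not tested. The count of genes with an unadjusted p under 0.05 was 676 as reported, 1501 with array weights, and from 394 to 1542 with 1 array left out (1542 where this was unmated replicate 3, 394 for unmated replicate 1, 437 for mated replicate 3). It was 447 without unmated arrays 1 and 2 and 273 for the brighter probe sets, among which PPO1, PPO2, PPO3 and eater had no value. The share of genes with a lower mated mean was 62.2% as reported, 50.3% after quantile normalization, 49.9% after cyclic loess and 41.2% after median centring.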
